A study of Homo sapiens with 9 samples.

Results

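The pentose phosphate pathway and the cytosolic enzymes that make NADPH were examined through 8 genes, PGD, PGLS, TKT, TALDO1, RPIA, RPE, ME1 and IDH1, which were picked by name. The deposited table held 24344 genes, and each of the 8 was found there a single time by its Ensembl identifier. All 8 were also among the 14195 genes with enough counts to be tested. The human breast adenocarcinoma line MDA-MB-231, an established cell line, was used, and RNA was sequenced after 48 h of treatment with a herbal injection. Compound Kushen Injection (CKI), which combines extracts of the herbs Kushen and Baituling, was given at 2 mg/ml of total alkaloid. Kushen injection and Baituling injection hold a single herb each and were given at the equivalent dilution. Each treatment had 3 libraries, described by the submitters as biological replicates, and the labels do not say whether they came from separate cultures. If they did not, p-values measure the spread between these libraries only. Every group had received an injection and untreated cells were not analysed here, so a difference between groups does not show which of them departed from untreated cells.

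The pathway burns glucose phosphate in an oxidative branch, which yields NADPH, and rearranges sugar phosphates in a non-oxidative branch, which yields ribose phosphate for nucleotides or returns carbon to glycolysis. PGLS (phosphogluconolactonase) opens the lactone ring of the oxidative branch, and PGD (phosphogluconate dehydrogenase) then releases NADPH and ribulose phosphate. RPIA (ribose phosphate isomerase A) turns ribulose phosphate into ribose phosphate, RPE (ribulose phosphate epimerase) turns it into xylulose phosphate, and TKT (transketolase) and TALDO1 (transaldolase) shuffle carbon units between the sugars. ME1 (cytosolic malic enzyme) and IDH1 (cytosolic isocitrate dehydrogenase) make NADPH from malate and isocitrate outside the pathway. NADPH feeds the reduction of glutathione and thioredoxin and the synthesis of fatty acids and sterols, and several of these genes are known targets of the transcription factor NRF2.

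The total count was 20144628 to 23782071 per library. Markers of the line were abundant, with VIM at 336 to 2116 CPM over the libraries (CPM, the count of a gene scaled by library size). The hormone receptor genes ESR1 and PGR had at most 4 counts. ERBB2, low in this line as a protein, was measured at 55.6 to 105 CPM. Of the other genes listed as low in this line, GATA3 was at 7.69 to 24.8 CPM (196 to 453 counts) and CDH1 at 0.44 to 2.82 CPM. PTPRC, a leukocyte gene, and ALB, a hepatocyte gene, had at most 9 and 7 counts, while the fibroblast gene COL1A1 was at 13.9 to 37.8 CPM. Library sizes were adjusted by the trimmed mean of M values (TMM), and the Baituling factors of 0.877 to 0.899 stood apart from those of Kushen (1.02 to 1.05) and CKI (1.08 to 1.10). Values are counts relative to this adjusted library size and not plain shares of the sequenced RNA. A change in cell number or in RNA per cell cannot be read from them.

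Promoter sequence was looked at because NRF2 acts through the antioxidant response element, here searched as TGACNNNGC on both strands of the 250 bases before and 50 bases after each start. RefSeq windows (build GRCh38.p14) were at hand for 8 of 8 genes, with 9 windows in all because IDH1 had a pair of starts. The letters were present in a window of 4 of the 8 genes, PGD, RPE, ME1 and IDH1, for IDH1 at only a single start of the pair. Of 35116 promoter windows of the same length, counted by window and not by gene, 13.3% held them. The stretches below hold these matches in capitals, with the flanking bases in lower case, and are shown since they set ME1, PGD and IDH1 beside RPE, whose levels behaved differently.
PGD: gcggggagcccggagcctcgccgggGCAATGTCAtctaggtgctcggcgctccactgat
ME1: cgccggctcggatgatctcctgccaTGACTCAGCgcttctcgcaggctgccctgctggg
IDH1: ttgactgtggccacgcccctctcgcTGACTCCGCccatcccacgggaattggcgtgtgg
RPE: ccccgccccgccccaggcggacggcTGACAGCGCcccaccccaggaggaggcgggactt
The PGD stretch is chr1:10398838-10398896 on the plus strand, and its match lies 201 bases before the start and reads on the opposite strand. The ME1 stretch is chr6:83431155-83431213 on the minus strand, with the match 137 bases before the start, and a further match began 12 bases after it. The IDH1 stretch is chr2:208255181-208255239 on the minus strand, with the match 143 bases before the start. The RPE stretch is chr2:210002462-210002520 on the plus strand, with the match 151 bases before the start. The ME1 match also contains the AP-1 letters TGANTCA, which 7.71% of promoters held and no other of the 8 genes did. The sterol response element letters TCACNCCAC and the E box CACGTG were found in none of the 8 genes and in 1.13% and 7.26% of all promoters. These matches are letters in a window and no measure of binding.

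**Figure D1:**
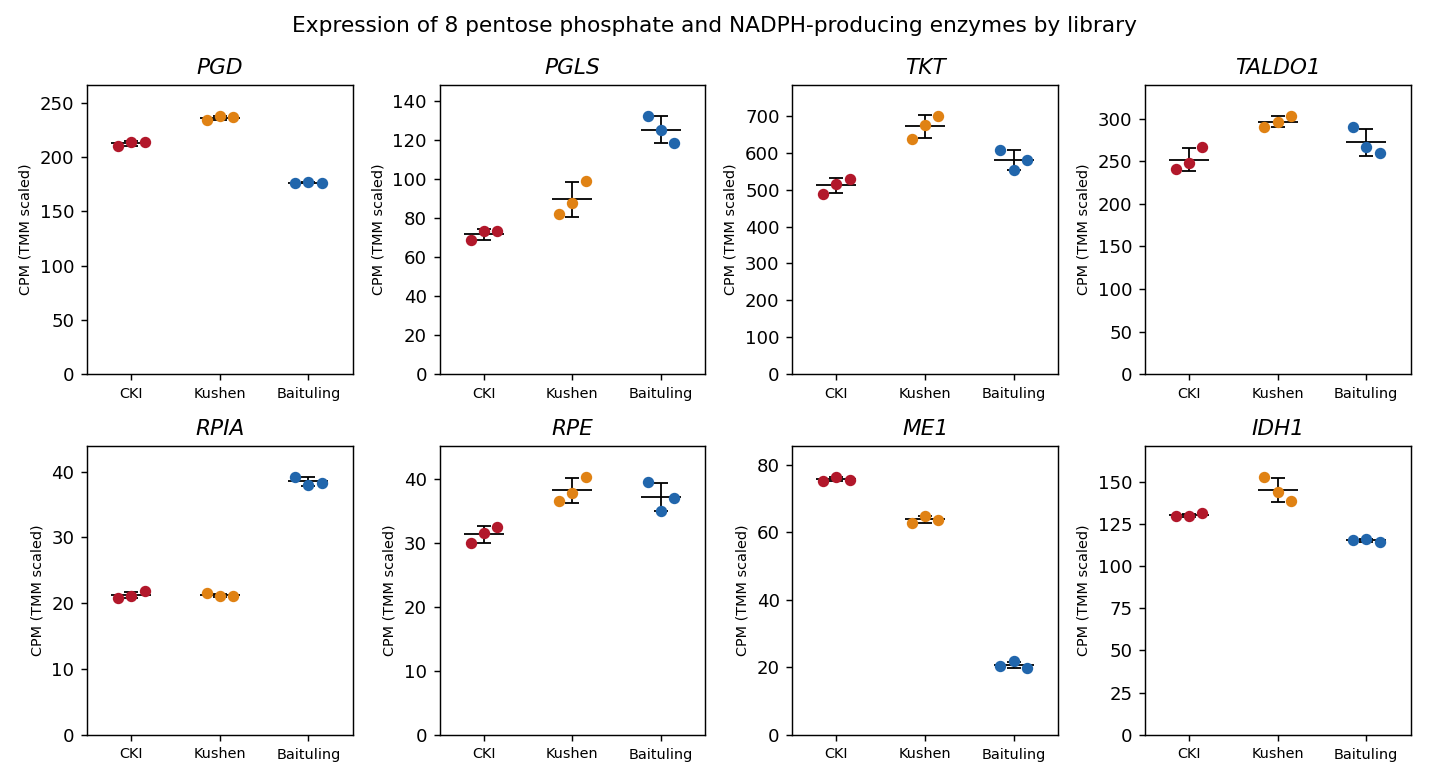
CPM (counts scaled by TMM library size, axes from 0) of each of the 8 genes in the 9 libraries, with 1 coloured point per library and black bars for the mean ± SD of 3 libraries. ME1 is highest in CKI, somewhat lower in Kushen and far lower in Baituling, RPIA and PGLS are highest in Baituling, and TKT and TALDO1 are highest on average in Kushen.

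ME1 showed by far the largest difference of the 8 genes, and it was the single member that reached a log2 fold change of 1. Its level was 75.3, 76.4 and 75.5 CPM in the CKI libraries, 62.8, 64.9 and 63.6 CPM in the Kushen libraries, and 20.3, 21.8 and 19.9 CPM in the Baituling libraries. No library of a group overlapped another group, and the order was CKI, then Kushen, then Baituling. In edgeR's quasi-likelihood test ME1 was 3.67-fold higher in CKI than in Baituling (95% interval 3.39 to 3.96, log2 fold change 1.87 ± 0.05 SE, adjusted p 1.44e-16). It was 3.09-fold higher in Kushen than in Baituling (95% interval 2.85 to 3.34, adjusted p 2.25e-15). Only 3.84% of all genes tested had a larger log2 fold change in the former contrast, and 3.65% in the latter. The log2 fold change between CKI and Kushen was 0.25 ± 0.05 (adjusted p 0.000288), a small difference beside the contrasts with Baituling. ME1 lies on chromosome 6 at 83920121 to 84140770 (build GRCh37, minus strand), and its canonical transcript has 14 exons.

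IDH1 also stood higher with either injection that holds Kushen, but by much less. It was at 129.6, 129.5 and 131.2 CPM in CKI, 153, 144 and 138 CPM in Kushen and 115, 116 and 114 CPM in Baituling. The 3 groups did not overlap, and the Kushen libraries were both the highest and the most spread. The log2 fold change was 0.18 ± 0.04 in CKI against Baituling (edgeR adjusted p 0.00134) and 0.33 ± 0.04 in Kushen against Baituling (adjusted p 1.28e-06). Between CKI and Kushen it was -0.16 ± 0.04 (adjusted p 0.00677), a call that was lost when libraries were scaled by their totals (-0.08, adjusted p 0.147). IDH1 (chromosome 2, 209100953 to 209130798, minus strand) shares 94 exon bases with IDH1-AS1, a long noncoding RNA on the other strand with 15 to 97 counts per library, and these unstranded libraries cannot tell their reads apart.

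In the oxidative branch the consecutive enzymes PGLS and PGD moved in opposite directions against Baituling. PGD was at 210.3, 214.1 and 214.1 CPM in CKI, 234, 238 and 237 CPM in Kushen and 176, 177 and 176 CPM in Baituling. The spread within each group was small and the groups were clearly apart, with Kushen highest. Its log2 fold change against Baituling was 0.27 ± 0.04 in CKI (edgeR adjusted p 2.68e-06) and 0.42 ± 0.04 in Kushen (adjusted p 6.57e-09). It was lower in CKI than in Kushen (-0.15 ± 0.04, adjusted p 0.00339), again a call lost under library totals (-0.08, adjusted p 0.101). The gene lies on chromosome 1 at 10458649 to 10480568 on the plus strand.

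PGLS was highest in Baituling and lowest in CKI. Its level was 68.6, 73.2 and 73.3 CPM in CKI, 81.9, 87.7 and 99.1 CPM in Kushen and 132, 125 and 118 CPM in Baituling. All CKI libraries lay below all Kushen libraries, and these below all Baituling libraries, although the Kushen libraries were spread over a wide range. PGLS was 1.75-fold lower in CKI than in Baituling (log2 fold change -0.81 ± 0.06, edgeR adjusted p 3.44e-10) and 1.40-fold lower in Kushen than in Baituling (-0.49 ± 0.06, adjusted p 5.44e-07). CKI was also below Kushen (-0.32 ± 0.06, adjusted p 0.000374). PGLS (chromosome 19, 17622445 to 17632097, plus strand) shares 254 exon bases with PGLS-DT on the other strand, which had 12 to 52 counts per library. Since scaling acts on all genes of a library alike, the PGD count was divided by the PGLS count of the same library, a ratio chosen after these values were seen. Baituling libraries averaged 1.41 ± 0.0794, Kushen libraries 2.65 ± 0.243 and CKI libraries 2.97 ± 0.0820 (SD, n = 3). The ratio was thus 2.11-fold larger in CKI and 1.88-fold larger in Kushen than in Baituling, with no overlap between groups. The exact two-sided permutation p was 0.1 for each, the smallest that 3 against 3 libraries can give. Against Baituling this outcome was fixed beforehand, since PGD and PGLS each differed without overlap and in opposite directions, so it adds no further evidence.

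Among the enzymes that follow ribulose phosphate, RPIA set Baituling apart from both other injections. It was at 20.8, 21.1 and 21.8 CPM in CKI, 21.5, 21.0 and 21.1 CPM in Kushen and 39.2, 38.0 and 38.3 CPM in Baituling. The CKI and Kushen libraries were intermingled, and every Baituling library was far above them. RPIA was 1.81-fold lower in CKI than in Baituling (log2 fold change -0.86 ± 0.06, edgeR adjusted p 5.17e-11) and 1.82-fold lower in Kushen than in Baituling (-0.86 ± 0.06, adjusted p 7.65e-11). Between CKI and Kushen the log2 fold change was 0.0012 with a 95% interval of -0.12 to 0.13 (adjusted p 0.990), which leaves room for a small difference either way. RPIA lies on chromosome 2 at 88991191 to 89050446 on the plus strand.

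RPE competes with RPIA for the same substrate and did not share its pattern. The level was 29.9, 31.6 and 32.5 CPM in CKI, 36.5, 37.8 and 40.4 CPM in Kushen and 39.5, 35.0 and 37.0 CPM in Baituling. Kushen and Baituling libraries overlapped, and CKI libraries lay below both. The difference between Kushen and Baituling was a log2 fold change of 0.04 (95% interval -0.09 to 0.17, edgeR adjusted p 0.597), which became 0.25 (adjusted p 0.000824) under library totals. CKI was lower than Kushen (-0.29 ± 0.06, adjusted p 0.00100) and lower than Baituling (-0.25 ± 0.06, adjusted p 0.00138), the latter turning to 0.04 (adjusted p 0.552) under library totals. RPE (chromosome 2, 210867289 to 210886984, plus strand) shares 840 exon bases with KANSL1L on the other strand, at 93 to 228 counts per library. RPEL1, a near copy of RPE elsewhere in the genome, had at most 3 counts.

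TKT and TALDO1, the carbon shuffling enzymes, had their highest mean in Kushen. TKT was at 489, 517 and 529 CPM in CKI, 637, 676 and 699.8 CPM in Kushen and 606, 553 and 580.3 CPM in Baituling. The Kushen libraries lay above all others and the CKI libraries below all others. The log2 fold change of CKI against Kushen was -0.39 ± 0.05 (edgeR adjusted p 2.53e-06), the largest difference of any member in that contrast, and that of Kushen against Baituling was 0.21 ± 0.05 (adjusted p 0.000451). CKI against Baituling gave -0.18 ± 0.05 (adjusted p 0.00172), but this direction depended on the scaling and became 0.11 (adjusted p 0.0190) under library totals. TKT lies on chromosome 3 at 53258728 to 53290068 on the minus strand, and its paralogs TKTL1 and TKTL2 had at most 3 and 1 counts.

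TALDO1 followed TKT with smaller differences. It was at 240.3, 248 and 267 CPM in CKI, 289.8, 296 and 303 CPM in Kushen and 289.97, 267 and 259.6 CPM in Baituling. Baituling libraries overlapped with both other groups, while CKI and Kushen were apart. Its log2 fold change in CKI against Kushen was -0.24 ± 0.05 (edgeR adjusted p 0.000722). Against Baituling the log2 fold changes were -0.11 ± 0.05 in CKI (adjusted p 0.0411) and 0.12 ± 0.05 in Kushen (adjusted p 0.0302), both close to the threshold. The former was not called without CKI replicate 1 (-0.08, adjusted p 0.186), CKI replicate 2 (-0.10, adjusted p 0.117) or Baituling replicate 1 (-0.07, adjusted p 0.226), nor under upper quartile scaling (-0.04, adjusted p 0.404) or when every library had to hold 10 counts of a gene (-0.07, adjusted p 0.184), and turned to 0.17 (adjusted p 0.000902) under library totals. The latter was not called without Kushen replicate 2 (adjusted p 0.0635), Kushen replicate 3 (0.0608), Baituling replicate 2 (0.109) or Baituling replicate 3 (0.171). The ratio of TKT to TALDO1 counts was 2.13 ± 0.0903 with Baituling, 2.26 ± 0.0569 with Kushen and 2.03 ± 0.0478 with CKI (SD, n = 3). TALDO1 lies on chromosome 11 at 747415 to 765012 on the plus strand.

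**Figure D2:**
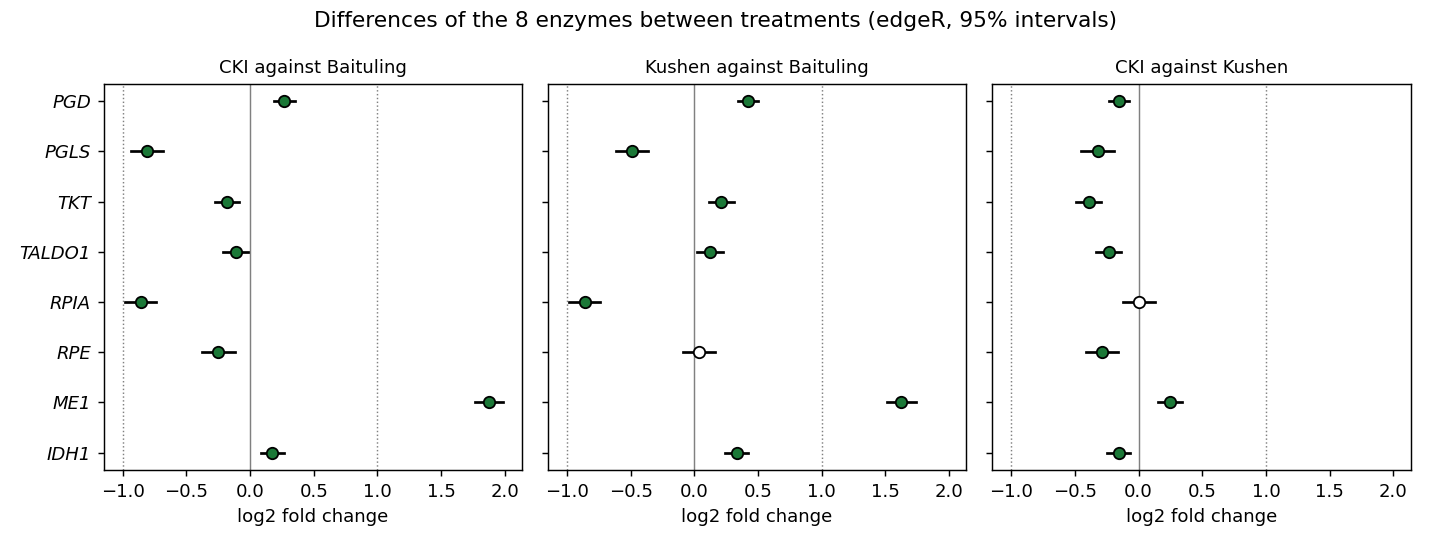
Log2 fold change (horizontal axis) of each gene (vertical axis) in the 3 comparisons, with 95% intervals from the fit over 9 libraries. Filled points had an adjusted p under 0.05, and dotted lines mark a log2 fold change of -1 and 1, which ME1 alone passed, against Baituling.

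The 3 comparisons can now be set side by side. In CKI against Kushen, which asks what Baituling adds to Kushen, 7 of the 8 passed an adjusted p of 0.05, as did 39.8% of all genes tested. ME1 was the 1 gene higher in CKI (19.6% of all genes were), PGD, PGLS, TKT, TALDO1, RPE and IDH1 were lower (20.2% of all genes were), and none passed a log2 fold change of 1, which 1.90% of all genes did. The groups did not overlap for these 7 genes, as for 49.5% of all genes, and the median log2 fold change of the 8 was -0.20 against 0.01 over all genes.

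In CKI against Baituling, which asks what Kushen adds to Baituling, all 8 passed, but so did 76.1% of all genes tested. PGD, ME1 and IDH1 were higher in CKI, against 39.1% of all genes, and the other 5 were lower, against 37.0%. The groups did not overlap for 7 of the 8, TALDO1 being the exception, and for 78.3% of all genes. Under library totals the split was 5 higher and 2 lower, since TKT and TALDO1 changed sides and RPE was no longer called. In Kushen against Baituling, 7 genes passed against 71.6% of all genes. PGD, TKT, TALDO1, ME1 and IDH1 were higher in Kushen, against 35.6% of all genes, and PGLS and RPIA were lower, against 36.1%. The groups did not overlap for 6 of the 8, TALDO1 and RPE being the exceptions, and for 73.1% of all genes. ME1 was the 1 gene past a log2 fold change of 1 in each contrast with Baituling, where 19.1% and 15.2% of all genes were. The median log2 fold change of the 8 genes was -0.15 in CKI and 0.17 in Kushen against Baituling, beside 0.03 and 0.02 over all genes. These contrasts share the Baituling libraries, and most genes were called in both.

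**Figure D3:**
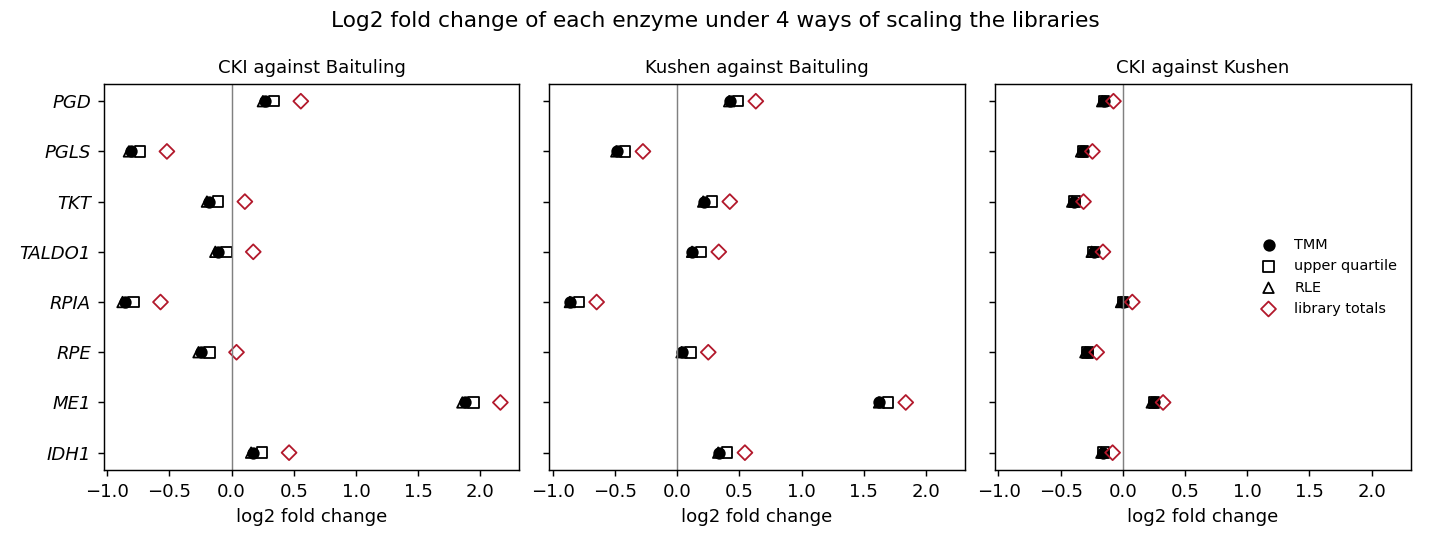
Log2 fold change (horizontal axis) of each gene (vertical axis) in the 3 comparisons when libraries were scaled by TMM, upper quartile, relative log expression (RLE) or their totals alone. Library totals moved all genes to the right in the contrasts with Baituling, carrying TKT, TALDO1 and RPE across 0 in CKI against Baituling, while ME1, PGD and IDH1 stayed above 0 and PGLS and RPIA below 0 in both.

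With library totals as the scaling, the median over all genes moved up on the log2 scale by 0.08 in CKI against Kushen, by 0.21 in Kushen against Baituling and by 0.29 in CKI against Baituling. Differences smaller than these shifts are relative to the TMM scale, and in CKI against Baituling those of PGD, TKT, TALDO1, RPE and IDH1 were smaller. In Kushen against Baituling those of TALDO1 and RPE were smaller, and that of TKT (0.2113) was about as large as the shift (0.2118). In CKI against Kushen that of RPIA was smaller. ME1 ranged from 1.84 to 2.16 over 19 alternative settings in CKI against Baituling, and RPIA from -0.88 to -0.57.

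Levels were compared between genes after division by the length of their exons. In Baituling TALDO1 was highest at 93.6 ± 5.44 CPM per kilobase, and ME1 was the lowest of the 8 genes at 6.19 ± 0.296 (SD, n = 3). In CKI ME1 reached 22.7 ± 0.186 CPM per kilobase, above RPIA at 11.7 ± 0.285 and RPE at 8.90 ± 0.376, and it was above both in Kushen as well, at 19.1 ± 0.323. RPIA in contrast was at 21.2 ± 0.350 CPM per kilobase in Baituling. In Kushen PGD at 70.9 ± 0.544 and TKT at 70.6 ± 3.31 did not differ beyond their spread, nor did PGLS at 31.5 ± 3.08 and IDH1 at 30.9 ± 1.56. The order of genes depended on the length used, and by canonical transcript PGLS was at 88.8 and IDH1 at 62.6 CPM per kilobase in Kushen. Per kilobase of the canonical transcript TKT (CKI 171 CPM, Kushen 224 CPM, Baituling 193 CPM) exceeded PGD (93.8, 104 and 77.8 CPM), because its annotated exons add up to 9502 bases but its canonical transcript to 2996. The place of ME1 below RPIA and RPE in Baituling and above both in CKI and Kushen was the same with either length.

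**Figure D4:**
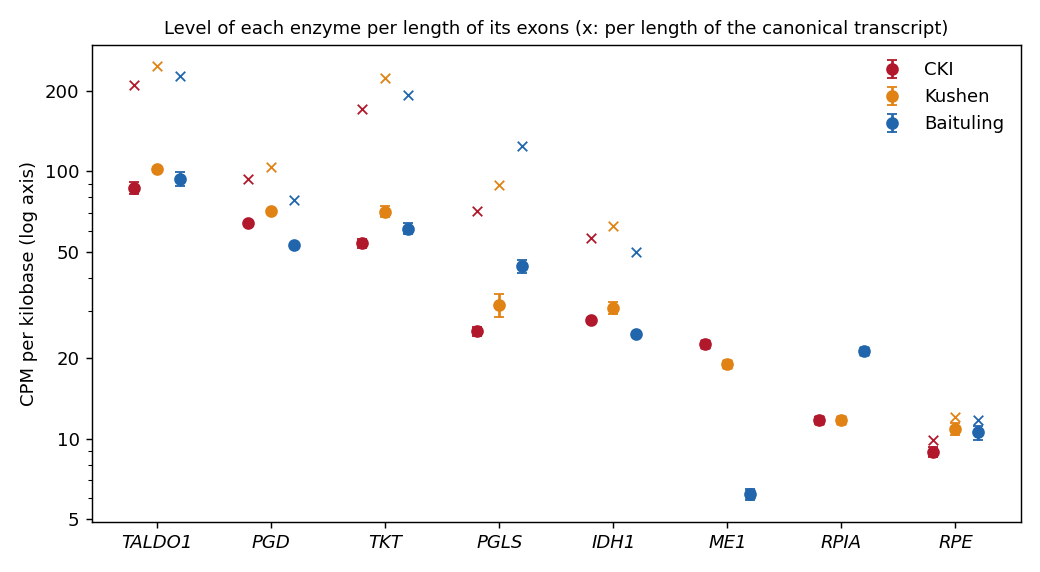
Mean level of each gene in CPM per kilobase of annotated exon (log axis), with SD over 3 libraries, by treatment, and crosses for the same counts per kilobase of the canonical transcript. Genes are ordered by their mean, from TALDO1 to RPE, and ME1 drops from 22.7 in CKI to 6.19 in Baituling while RPIA goes from 11.7 to 21.2.

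Other genes of the same chemistry were read from 5 lists, beginning with the isozymes, and counts below are of genes past an adjusted p of 0.05. IDH2, the mitochondrial counterpart of IDH1, ran the other way, from 41.1 ± 0.748 CPM in Baituling to 20.5 ± 0.809 in Kushen and 14.7 ± 0.837 in CKI (SD, n = 3). It was 2.80-fold lower in CKI than in Baituling (edgeR adjusted p 7.44e-14) and 2.01-fold lower in Kushen (adjusted p 2.36e-11). The count ratio of IDH1 to IDH2, likewise chosen after values were seen, was 2.81 ± 0.0561 for Baituling, 7.09 ± 0.603 for Kushen and 8.88 ± 0.454 for CKI (SD, n = 3), with no overlap (exact two-sided permutation p 0.1 for each pair). Against Baituling that outcome was fixed beforehand, since IDH1 and IDH2 differed without overlap in opposite directions. The malic enzymes of the mitochondrion, named after their values were seen, did not follow ME1 either. ME3 was lower than in Baituling in CKI (-0.91 ± 0.06, adjusted p 1.08e-10) and in Kushen (-0.51 ± 0.06, adjusted p 4.39e-07). ME2 differed by -0.13 ± 0.05 in CKI (adjusted p 0.0350) and by -0.09 ± 0.05 in Kushen (adjusted p 0.142). The count ratio of ME1 to ME3 was 0.416 ± 0.0100 for Baituling, 1.84 ± 0.174 for Kushen and 2.87 ± 0.135 for CKI (SD, n = 3), again without overlap (exact two-sided permutation p 0.1 for each pair). For ME1 and ME3, which differed in opposite directions without overlap in every pair of groups, this too was fixed beforehand.

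The list of other NADPH and NADP genes, which holds these isozymes and the folate enzymes that also make NADPH, had 15 genes tested. In CKI against Baituling 12 were lower and 1 higher, with a median log2 fold change of -0.81 against 0.03 for all genes, and in Kushen against Baituling 10 were lower and none higher, with a median of -0.52. Of all genes, 37.0% were lower and 39.1% higher in the former contrast, and 36.1% and 35.6% in the latter. Library totals changed these splits to 10 lower and 3 higher, and to 9 lower and 3 higher. SHMT2, which loads the mitochondrial folate pathway with carbon units, was at 355 ± 14.6 CPM in Baituling and 159 ± 8.59 in Kushen (SD, n = 3, log2 fold change -1.16 ± 0.05, edgeR adjusted p 9.58e-14). In CKI against Kushen 8 were lower and 1 was higher, beside 20.2% and 19.6% of all genes. The higher gene was MTHFD2L (0.30 ± 0.08, adjusted p 0.00851), and the lowest among those that passed was IDH2 (-0.48 ± 0.07, adjusted p 1.65e-05).

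Of the pentose phosphate neighbours, 11 of 14 listed genes were tested. In Kushen against Baituling, where 71.6% of all genes were called (36.1% lower, 35.6% higher), 6 were lower and 1 was higher. In CKI against Baituling, where 76.1% were called (37.0% lower, 39.1% higher), 6 were lower and 3 higher. These splits depended on the scaling, since library totals gave 4 in each direction and 5 in each direction. DERA, which cleaves deoxyribose phosphate, was lower in Kushen than in Baituling by -0.65 ± 0.07 (edgeR adjusted p 3.10e-08), and so was GPI, the glycolytic isomerase at the branch point, by -0.61 ± 0.05 (adjusted p 1.75e-09). PGM2, which interconverts pentose phosphates, was the gene that was higher (0.26 ± 0.05, adjusted p 8.52e-05). Between CKI and Kushen 4 of the 11 passed, near the 39.8% of all genes, with 2 in each direction (4 higher and 1 lower under library totals). H6PD, the oxidative branch enzyme of the endoplasmic reticulum, was at 119 ± 1.88 CPM in CKI and 166 ± 9.50 in Kushen (-0.48 ± 0.05, adjusted p 3.83e-07), and TIGAR, a sugar phosphatase that restrains glycolysis, was at 17.4 ± 0.356 and 13.5 ± 0.832 CPM (0.36 ± 0.08, adjusted p 0.000895).

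The NRF2 pathway and thiol reduction list held the enzymes that spend NADPH on glutathione and thioredoxin. Against Baituling 11 of its 13 genes were higher in CKI and 10 in Kushen, with medians of 0.97 and 0.96 on the log2 scale, and 2 were lower in each. Of all genes, 39.1% were higher and 37.0% lower in CKI, and 35.6% and 36.1% in Kushen. Library totals moved the median of all genes up by 0.29 and 0.21 in these contrasts. GCLM, a subunit of the first enzyme of glutathione synthesis, was at 44.6 ± 1.07 CPM in Baituling and 229 ± 5.20 in Kushen (SD, n = 3, log2 fold change 2.36 ± 0.04, edgeR adjusted p 1.66e-18), and SRXN1, which repairs oxidised peroxiredoxins, was higher by 1.90 ± 0.09 (adjusted p 7.80e-13). The 2 lower genes were KEAP1, the inhibitor of NRF2 (-0.48 ± 0.05 in Kushen), and TXN, thioredoxin itself (-0.34 ± 0.05). Between CKI and Kushen 10 of the 13 passed, beside 39.8% of all genes, with 6 higher and 4 lower in CKI and log2 fold changes from TXNRD1 at -0.28 ± 0.04 (adjusted p 1.99e-05) to HMOX1 at 0.37 ± 0.06 (adjusted p 4.05e-05).

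Genes of the lipid synthesis list were mostly lower than in Baituling on the TMM scale, but not under library totals. The list is not one of NADPH consumers alone. ACLY, SLC25A1, MDH1, SREBF1 and SREBF2 do not use NADPH, and all were among the genes called lower in CKI against Baituling. In CKI against Baituling 11 of 15 were lower and 3 higher (median -0.35), beside 37.0% and 39.1% of all genes. In Kushen against Baituling 8 were lower and 3 higher (median -0.15), beside 36.1% and 35.6% of all genes. Library totals changed these splits to 6 lower and 5 higher, and to 5 lower and 7 higher. SREBF1, a regulator of lipid synthesis, was lower in Kushen than in Baituling by -0.83 ± 0.07 (edgeR adjusted p 1.56e-09) and LBR, a sterol reductase of the nuclear membrane, by -0.53 ± 0.04, while TM7SF2, a sterol reductase of the same step, and SQLE, which oxidises squalene, were higher by 0.44 ± 0.06 and 0.39 ± 0.05. In CKI against Kushen 12 were lower, FASN most (-0.48 ± 0.05, adjusted p 8.54e-07), and POR alone was higher (0.42 ± 0.06, adjusted p 5.12e-05). Of all genes, 20.2% were lower and 19.6% higher there.

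Nucleotide synthesis genes, which draw on ribose phosphate, were mostly highest in Baituling. Of 17 genes, 16 were lower in CKI and 15 in Kushen than in Baituling, with medians of -0.98 and -0.67, and none was called higher. Of all genes, 37.0% were lower and 39.1% higher in CKI, and 36.1% and 35.6% in Kushen. Under library totals 14 and 12 of the 17 were called lower, and 2 were called higher in each. TYMS, which makes thymidylate, was at 87.0 ± 1.72 CPM in Baituling, 27.0 ± 0.623 in Kushen and 18.9 ± 1.90 in CKI (SD, n = 3), and RRM2, a subunit of ribonucleotide reductase, was lower in Kushen than in Baituling by -1.72 ± 0.05 (edgeR adjusted p 7.59e-16). TYMS shares 967 exon bases with ENOSF1 on the other strand. In CKI against Kushen 13 of the 17 genes were called lower and none higher (11 and 1 under library totals), beside 20.2% and 19.6% of all genes. APRT, which salvages adenine, was at -0.54 ± 0.06 (adjusted p 3.86e-07).

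**Figure D5:**
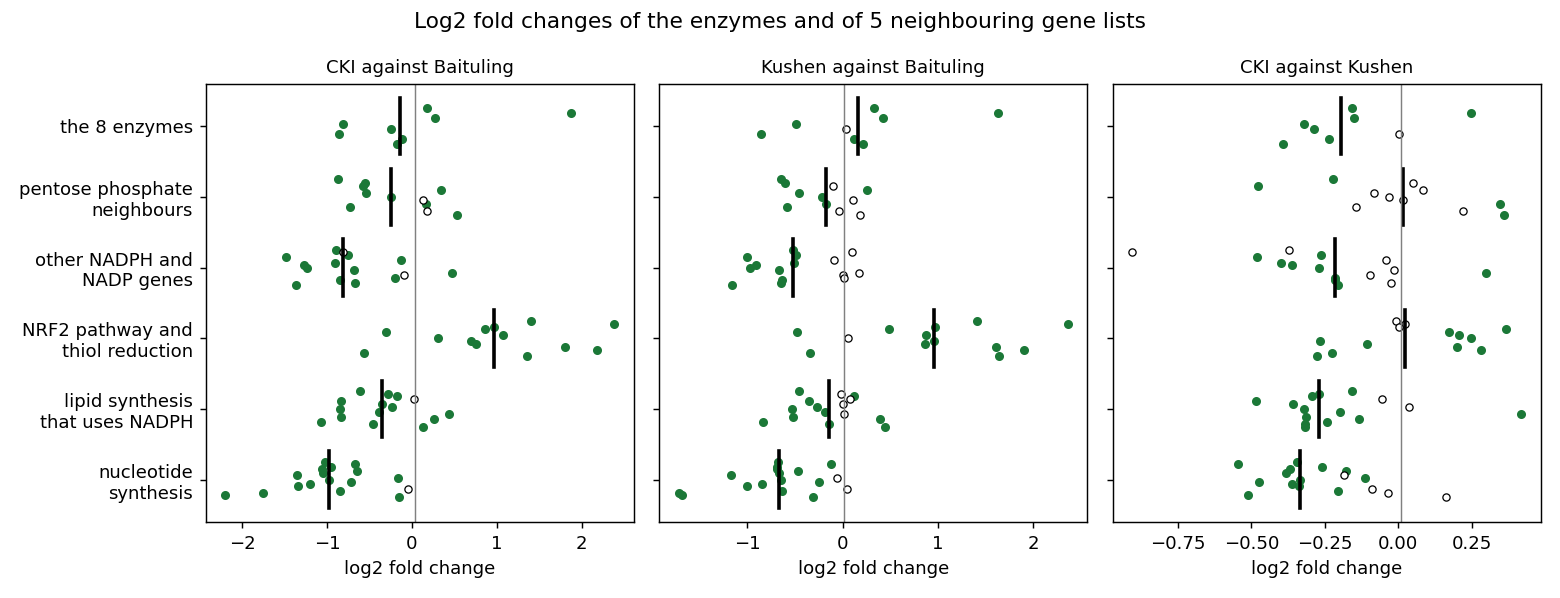
Log2 fold change (horizontal axis, scaled separately in each panel) of single genes in the 8 enzymes and 5 lists (vertical axis), with filled points for an adjusted p under 0.05, open points for other genes, black bars for list medians and a grey line for the median of all genes. Against Baituling the NRF2 list has a median near 0.97 in CKI and the nucleotide list one of -0.98. The 8 enzymes are spread there from RPIA at -0.86 to ME1 at 1.87, which lies above the NRF2 median.

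Genes with a pattern most like the members were sought by the root mean square difference of log2 CPM over the 9 libraries, after each gene was centred on its mean, among 11964 genes. SLC7A11, the cystine transporter, was nearest to ME1 with a difference of 0.05, followed by DHFR2 at 0.08. The log2 fold changes of SLC7A11 against Baituling were 1.80 in CKI and 1.60 in Kushen, beside 1.87 and 1.63 for ME1. The ratio of ME1 to SLC7A11 counts was 0.434 ± 0.0113 for Baituling, 0.441 ± 0.0232 for Kushen and 0.455 ± 0.0147 for CKI (SD, n = 3), which restates the choice of SLC7A11 by its likeness to ME1 in these libraries. SLC7A11 shares 865 exon bases with SLC7A11-AS1 on the other strand. RPIA was nearest to ARL6IP1 (0.02) and LDHA (0.03), PGLS to SLC25A1 and MCM4 (0.04 each), and PGD to ATP6AP2 (0.02) and PKP4 (0.03). These distances describe 9 libraries that fall into 3 groups.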

How the data were processed

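RNA from 9 libraries of MDA-MB-231 cells in 3 treatment groups was sequenced unstranded and paired-end. Per the labels and methods, the authors trimmed reads with Trim Galore 0.3.7 and aligned them with STAR 2.5.3a to hg19. They deposited raw counts per gene without normalization; the counting program and annotation are not given in the sources used here. Of 24566 rows, 222 repeated an Ensembl gene and were dropped. Symbols came from GENCODE on GRCh37, the same assembly (24224 genes), and from RefSeq GRCh38.p14 (99, names only). Promoters are RefSeq's.

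Genes were kept by filterByExpr (minimum count 10, total 15) in edgeR 4.0.16 (R 4.3.3). A single quasi-likelihood fit held all 9 libraries with group as its term and TMM scaling. P-values are two-sided, Benjamini-Hochberg adjusted over 14195 genes. The fit was tested on simulated data. Members and lists were chosen with earlier results of these data known. From each list the text names up to 2 called genes at either end in Kushen against Baituling and 1 in CKI against Kushen, and neighbours of the 4 members with the largest F. Alternatives were library totals, upper quartile or RLE scaling, DESeq2, limma-voom, a fold threshold in the test, other count filters, only the groups compared, a replicate block, the rows as deposited and leaving out each library. Count ratios, tested by exact permutation, and canonical transcript lengths were added after seeing the data. Replicate pairs differed by more than sampling noise (chi-square per gene 1.70 to 6.85).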

Additional observations from a re-analysis of the deposited data

How the results depend on the processing

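Settings that scaled, filtered or tested differently, or left out a library, kept the counts of members with an adjusted p under 0.05 within 1.5 times. A test against a log2 fold change of 1 (glmTreat), run in place of the fold threshold only, called 0 members in CKI against Kushen and 1 in each contrast with Baituling, the same counts as the threshold gave. ME1, PGD and IDH1 were above Baituling, and PGLS and RPIA below it, in both contrasts under all 19 alternatives. Directions of the log2 fold change differed from those reported in the following cases. Library totals gave 0.11 for TKT, 0.17 for TALDO1 and 0.039 for RPE in CKI against Baituling, 0.039 for RRM2 in CKI against Kushen, and 0.11 for H6PD and 0.086 for APRT in Kushen against Baituling. RPIA in CKI against Kushen was -0.014 under RLE and under DESeq2, -0.0066 with all genes of at least 1 count and -0.0073 with rows as deposited. Leaving out single libraries, it ranged from -0.019 to 0.016, RRM2 from -0.089 to 0.0034 and GCLM from -0.0083 to 0.032 in that contrast, and RPE from -0.0067 to 0.093 and POR from -0.069 to 0.11 in Kushen against Baituling. The cause of each was not tested. Under library totals 8 members were called between Kushen and Baituling, 7 between CKI and Baituling and 5 between CKI and Kushen.

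Replicate numbers did not pair the libraries, since deviations of same-numbered libraries correlated at -0.07 to 0.12 and those of other pairs at -0.15 to 0.18. With the replicate block 7 members were called in each contrast. Of the 24 member log2 fold changes, called or not, 1 lost its call, TALDO1 in CKI against Baituling (adjusted p 0.0586). The lowest count of any member in a library was 360 (ME1, Baituling).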
